A study of Mus musculus with 2 samples.

Results

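The plasminogen activators and their inhibitors are described here by 6 genes that were chosen by symbol from the 17431 genes with a read in either of 2 RNA libraries. Plau encodes urokinase, Plat encodes tissue plasminogen activator, Plaur encodes the urokinase receptor, Serpine2 encodes protease nexin 1, Serpinb2 encodes plasminogen activator inhibitor type 2, and Serpinf2 encodes alpha-2-antiplasmin. All 6 had reads in both libraries, and 5 of them were among the 12053 expressed genes, which had RPKM (reads scaled to the gene's length in kilobases and to the library's counted total) of 1 or more and 20 reads or more in at least 1 library. Serpinf2 lay below that filter, and Serpinb2 passed it through the SKP library alone.

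Each library came from cultured dermal cells of BALB/c mice. Fibroblasts from mice at postnatal day 3 were kept in DMEM that contained fetal bovine serum at 10%. Skin-derived precursors (SKPs), dermal cells selected by their growth in mitogens, were taken at postnatal day 4. Their medium was DMEM/F12 with 40 ng/ml of FGF2, 20 ng/ml of EGF and B27 supplement at 2%. Cell type, medium, growth factors and age therefore differed together and cannot be told apart. With 1 library per cell type there was no replicate check and nothing to test the cell types with. Intervals in parentheses are 95% exact intervals that cover counting error only.

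Of 23374716 fibroblast reads 78.7% were counted to genes, and of 22981183 SKP reads 82.5%. All 7 mesenchymal markers, among them Col1a1, Pdgfra and Vim, reached RPKM 1 in each library. All 7 SKP markers reached RPKM 1 in the SKP library and 6 did so in the fibroblast library. Of the 7, 2 were at least 2-fold higher in SKPs and 0 lower, where 12.1% of all expressed genes were higher and 6.41% lower. Only 3 of the 7 had a ratio above 1, and their median log2 ratio was -0.14. Their summed RPKM was 983 in SKPs against 1077 in fibroblasts. Summed over each list, markers of other skin cells were higher in the SKP library, though not every single marker was. The summed RPKM was 29.4 against 5.23 for 12 macrophage markers, 46.9 against 4.74 for 12 keratinocyte markers, 83.2 against 0.241 for 8 mast cell markers, 345 against 23.2 for 6 adipocyte markers and 9.11 against 4.87 for 8 endothelial markers. Single genes weighed on these sums, and 1 adipocyte marker alone stood at 243 RPKM against 22.6. Of the endothelial markers 2 were expressed, 1 at least 2-fold higher in SKPs and 1 neither, and 1 below the filter stood at 0.328 RPKM against 0.547.

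Urokinase and tissue plasminogen activator are secreted serine proteases that cut plasminogen, a circulating zymogen, to plasmin. Plasmin dissolves fibrin, degrades matrix glycoproteins and activates several matrix metalloproteinases. The urokinase receptor holds urokinase at the cell surface, where cells use it in migration and wound repair. Serpins end the process as suicide substrates that trap the protease in a covalent complex.

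Upstream sequences of 4 of the 6 genes were found in the RefSeq table for GRCm38.p6, which is not the build of the deposited files (mm9). Plau and Plat were not among them. The 250 bases before the start site are printed for the 3 of these genes that were expressed, because these genes differ in both level and ratio. Capitals mark the matches to 4 motifs. The AP-1 site was searched as TGACTCA on both strands. The GC box was searched as GGGCGG on both strands, with overlapping matches counted apart. The TATA box was searched as TATAAA on the strand of the gene only. The cAMP response element was searched as TGACGTCA, which reads the same on both strands.
Plaur (chr7:24462233-24462482, plus strand): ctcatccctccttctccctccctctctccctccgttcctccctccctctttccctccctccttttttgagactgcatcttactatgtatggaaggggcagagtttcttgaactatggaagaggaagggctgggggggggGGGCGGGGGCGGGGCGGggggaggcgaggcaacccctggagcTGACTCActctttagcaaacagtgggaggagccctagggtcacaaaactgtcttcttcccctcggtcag
Serpine2 (chr1:79858666-79858915, minus strand): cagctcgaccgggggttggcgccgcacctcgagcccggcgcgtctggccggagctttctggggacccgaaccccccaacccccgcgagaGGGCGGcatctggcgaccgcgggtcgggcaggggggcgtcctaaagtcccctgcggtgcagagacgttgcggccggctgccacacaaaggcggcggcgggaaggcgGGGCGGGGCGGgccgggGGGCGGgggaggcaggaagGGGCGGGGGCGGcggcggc
Serpinb2 (chr1:107511173-107511422, plus strand, the first of its 2 listed starts): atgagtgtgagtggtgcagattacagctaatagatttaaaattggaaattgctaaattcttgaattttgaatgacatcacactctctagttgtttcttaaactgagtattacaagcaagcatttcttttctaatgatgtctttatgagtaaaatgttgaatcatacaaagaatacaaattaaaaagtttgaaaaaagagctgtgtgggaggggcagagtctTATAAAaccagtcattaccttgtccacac

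The 3 windows differed in composition. Serpine2 was 78.8% G and C and held 6 GC boxes, Plaur was 59.6% G and C with 3 GC boxes, and Serpinb2 was 32.4% G and C with none. The median of all 32817 windows was 52.4%. Plaur alone of these windows held an AP-1 site, whose first base lay 69 bases before the start. Serpinb2 alone held a TATA box, 29 bases before the first of its 2 listed starts and 116 bases before the second. The window of that second start was 38.4% G and C. Of all windows, 4.46% held the AP-1 letters, 32.7% the GC box, 7.60% the TATA box and 1.55% the cAMP response element, which was found in none of the 3. The Serpinf2 window held none of the 4 motifs.

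Plau had by far the highest level of the 6 genes in the SKP library and a modest one in the fibroblast library. Its RNA (gene ID 18792) stood at 14.7 RPKM (13.6 to 15.9) in fibroblasts, from 636 reads, and at 421 RPKM (415 to 427) in SKPs, from 18710 reads. It was thus 28.6-fold higher in SKPs (26.4 to 31.0), or 4.84 on the log2 scale. Among all genes it ranked 4593 by RPKM in fibroblasts and 123 in SKPs. Only 177 of the 12053 expressed genes had a higher ratio in favour of SKPs. Reads covered 98.0% of the gene's length in fibroblasts and 99.7% in SKPs, so reads lay along nearly the whole gene in both. The summed marker levels of other skin cells given above were higher in the same library, and the part of such cells in the Plau level was not tested, and in bulk RNA fewer cells of a type and less RNA per cell cannot be told apart.

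Plat, the second activator, was nearly level between the libraries. It had 2804 reads and 59.8 RPKM (57.6 to 62.0) in fibroblasts and 3606 reads and 74.7 RPKM (72.3 to 77.2) in SKPs. The ratio of 1.25 (1.19 to 1.31) was above equality by more than counting error and below the 2-fold used to call a gene different. Plat stood at percentile 90.0 of expressed genes in fibroblasts and 92.6 in SKPs.

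Plaur, which encodes the receptor for urokinase, did not differ beyond counting error. It stood at 23.9 RPKM (22.0 to 25.9) from 614 reads in fibroblasts and at 26.0 RPKM (24.1 to 28.0) from 687 reads in SKPs. The ratio was 1.09 (0.973 to 1.21), an interval that includes equality and holds no difference above 1.21-fold in favour of SKPs.

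**Figure D1:**
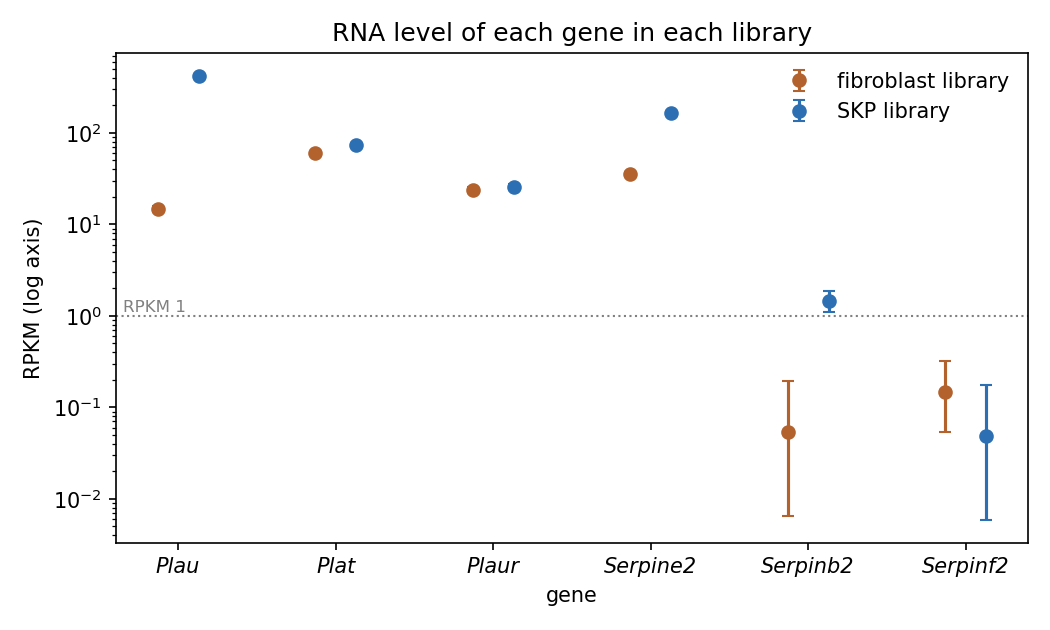
RPKM on a log axis for each of the 6 genes in the fibroblast library (brown) and the SKP library (blue). Points are single libraries, bars are 95% exact Poisson intervals of the read count, and the dotted line is the expression filter of RPKM 1. Plau and Serpine2 were far higher in SKPs, at 421 against 14.7 and 165 against 35.5 RPKM, Plat and Plaur lay close together, and Serpinb2 and Serpinf2 sat near or below the filter.

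Serpine2, a cell-surface and matrix-bound serpin that inhibits thrombin, urokinase, tissue plasminogen activator and plasmin, was the only inhibitor of the 3 with an appreciable level. It had 1353 reads and 35.5 RPKM (33.6 to 37.4) in fibroblasts and 6475 reads and 165 RPKM (161 to 169) in SKPs. The SKP library was 4.65-fold higher (4.38 to 4.93). Serpine2 ranked 2103 by RPKM in fibroblasts and 360 in SKPs, and 608 expressed genes had a higher ratio.

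Serpinb2, an inhibitor of urokinase that is largely retained inside cells and is well known from macrophages and keratinocytes, was scarce. It had 2 reads (0.0541 RPKM, 0.00656 to 0.196) in fibroblasts and 55 reads (1.45 RPKM, 1.09 to 1.88) in SKPs. The ratio was 26.7 with a wide interval of 7.05 to 226. On the log2(RPKM + 1) scale, which damps low values, the difference was 1.21 in place of 4.74. Its 55 reads covered 60.2% of the gene length. Summed macrophage and keratinocyte markers were higher in the same library. Of the macrophage markers, Emr1 (F4/80) had 13 SKP reads against 0 and Ptprc (CD45) 12 against 2, both below the expression filter. Other macrophage markers had intervals that included equality, namely Csf1r (29 reads against 20), Cd14 (32 against 22), C1qb (5 against 1) and Aif1 (2 against 1). Among the keratinocyte markers, Krt14 stood at 13.4 RPKM against 0.970. The part of these cells in the Serpinb2 reads was not tested.

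Serpinf2, the main circulating inhibitor of plasmin and a product of the liver, was close to absent from both cultures. It had 6 reads (0.148 RPKM) in fibroblasts and 2 reads (0.0480 RPKM) in SKPs. The ratio of 0.324 had an interval of 0.0320 to 1.81, so no difference was detectable at this depth. The next gene on chromosome 11 is its family member Serpinf1, which encodes pigment epithelium-derived factor, a serpin without protease inhibitor activity. Serpinf1 was among the abundant RNAs of both libraries, at 834 RPKM in fibroblasts and 866 in SKPs.

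**Figure D2:**
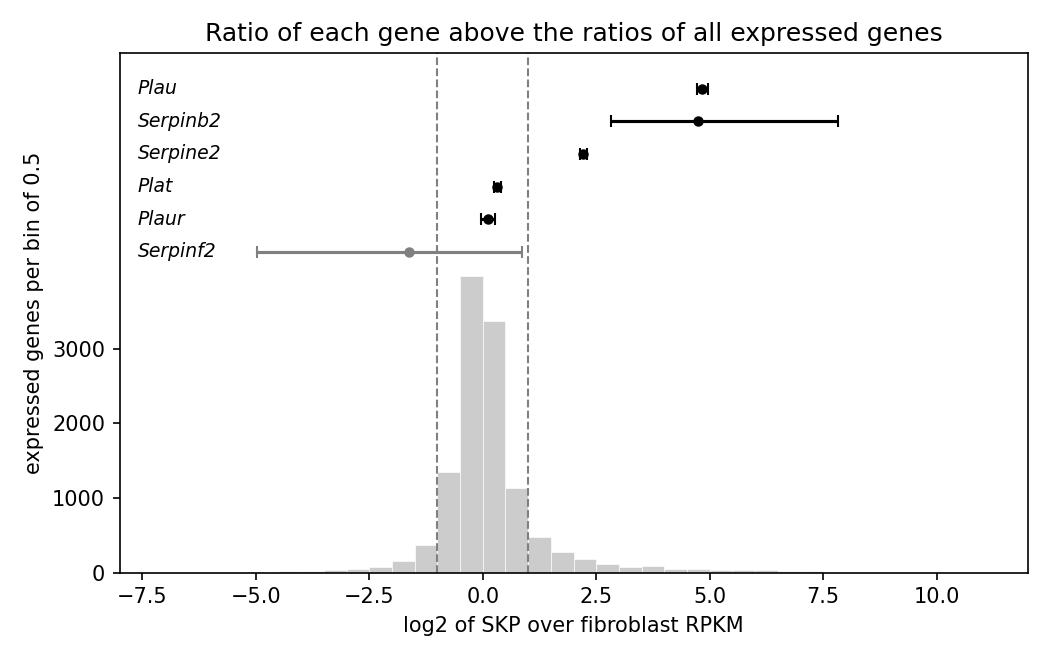
Log2 of SKP over fibroblast RPKM for the 6 genes (points, with 95% exact counting intervals) above a histogram of the same ratio over 12053 expressed genes in bins of 0.5. Dashed lines mark 2-fold. Plau at 4.84, Serpinb2 at 4.74 and Serpine2 at 2.22 lay to the right of the line, Plat and Plaur lay in the bulk of genes, and Serpinf2 (grey, below the filter) had an interval across equality.

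Counted over all 6 genes, 3 (Plau, Serpine2 and Serpinb2) lay at or above 2-fold in favour of SKPs with an interval that excluded equality, and 0 were lower. Over all expressed genes 12.1% were higher by this rule and 6.41% were lower, and over all genes with a read the shares were 12.6% and 6.22%. Plau and Serpinb2 also had ratios above 16-fold, as did 2.08% of expressed genes, but the Serpinb2 interval (7.05 to 226) reached below 16. The median log2 ratio of the 6 was 1.27, against -0.01 over all genes with a read. The 6 genes were put together with results of these libraries known, so these counts describe them and do not set them apart from other genes. For Serpinb2, which passed the expression filter in SKPs alone, the filter itself left no other direction. In the authors' deposited table, a filtered list with absolute log2 ratio of at least 1 and FDR of at most 0.001 held the same 3 members, and it held 10.5% of all genes as higher in SKPs. The test behind the FDR is not named, and it rests on the reads of 2 libraries.

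Because RPKM is per length, the members can also be ordered within a library. In fibroblasts the order was Plat, Serpine2, Plaur, Plau, Serpinf2 and Serpinb2. The 4 abundant genes differed from their neighbours by 1.49-fold to 1.68-fold in RPKM, each with an interval excluding equality, while Serpinf2 and Serpinb2 could not be told apart (ratio 2.74, 0.490 to 27.7). In SKPs the order was Plau, Serpine2, Plat, Plaur, Serpinb2 and Serpinf2, and every neighbouring pair differed beyond counting error, by 2.21-fold or more in RPKM. Plau thus held the fourth place in fibroblasts and the first in SKPs, and Plat the first and the third.

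The leading activator RNA differed between the cultures. In fibroblasts Plat RNA was 4.05-fold above Plau (3.72 to 4.43), and in SKPs Plau was 5.64-fold above Plat (5.44 to 5.85). The Plau to Plat ratio was 22.9-fold higher in SKPs (20.8 to 25.1), a quantity in which the scaling of the libraries cancels. Added together, the RPKM of both activators came to 74.5 in fibroblasts, of which Plau made up 19.8%, and to 496 in SKPs, of which Plau made up 84.9%. The sum was 6.66-fold higher in SKPs.

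Plau RNA also stood differently to its receptor and to Serpine2. Plaur RNA was 1.62-fold above Plau in fibroblasts (1.45 to 1.81), whereas Plau was 16.2-fold above Plaur in SKPs (15.0 to 17.5), a 26.3-fold difference of the ratio (22.9 to 30.1). Serpine2 RNA was 2.41-fold above Plau in fibroblasts (2.19 to 2.65), and Plau was 2.55-fold above Serpine2 in SKPs (2.48 to 2.63), a 6.15-fold difference of the ratio (5.57 to 6.79). Against Plat, Serpine2 went the other way, with 1.68-fold more Plat in fibroblasts (1.58 to 1.80) and 2.21-fold more Serpine2 in SKPs (2.12 to 2.30). The summed activators stood at 2.10 times Serpine2 in fibroblasts and 3.01 times in SKPs. These are ratios of RNA and give no measure of protein or protease activity.

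**Figure D3:**
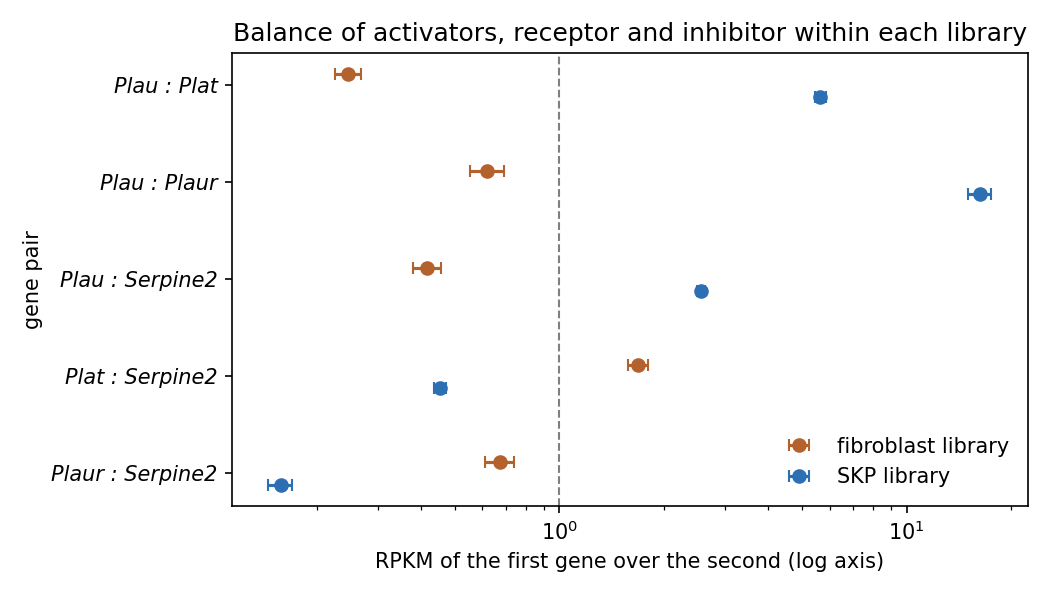
RPKM of the first gene over the second, on a log axis, for 5 pairs of members in the fibroblast library (brown) and the SKP library (blue), with 95% exact counting intervals. The dashed line marks equal RPKM. In 4 of the 5 pairs the libraries lay on opposite sides of equality, and Plaur stayed below Serpine2 in both.

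The surroundings of the 6 genes in the plasmin system were described with fixed lists, to be read against 12.1% higher, 6.41% lower and a median log2 ratio of -0.01 over all expressed genes. A list gene that passed the expression filter in 1 library alone was bound to lean towards that library, and such genes are named beside the counts. Plasminogen itself (Plg), made mainly by the liver, had 0 reads in fibroblasts and 2 in SKPs. Of 5 expressed genes in the list of the precursor and other activating proteases, 2 were higher in SKPs, none lower and 3 neither, and the median log2 ratio was 0.82. The 2 were Ctsl, the lysosomal protease cathepsin L, at 1063 RPKM against 221 (4.81-fold, 4.69 to 4.92), and Klk6, a kallikrein, with 88 reads against 0. With 3 reads standing for the 0, Klk6 was 28.5-fold higher, and its interval from the counts starts at 22.7 and has no upper end. The cathepsin genes Ctsb (408 against 230 RPKM) and Ctsd (608 against 491) and the kallikrein gene Klk8 (1.12 against 0.904) were under 2-fold apart. Klk6 and Klk8 passed the filter in SKPs alone, and of the 3 genes that passed in both libraries 1 was higher.

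Binding and clearance genes of the activators divided, with 7 of 19 expressed members higher in SKPs, 4 lower and 8 neither, and a median of 0.56. Lrp1, the endocytic receptor that clears complexes of activator and serpin, stood at 303 RPKM against 132 (2.29-fold, 2.27 to 2.32). Itgb3, the vitronectin receptor subunit that associates with the urokinase receptor, was 4.37-fold higher (4.04 to 4.73), and Sdc1, a heparan sulfate proteoglycan gene, 3.42-fold. Igf2r, a receptor that binds the urokinase receptor and plasminogen, was 2.63-fold higher, and the leukocyte integrin gene Itgb2 was 19.2-fold higher from 178 reads against 9. Itgb2 passed the filter in SKPs alone, which left 6 of 18 genes that passed in both higher. Among the lower members, Eno1, a glycolytic enzyme that also binds plasminogen at the cell surface, stood 2.08-fold higher in fibroblasts (1.97 to 2.20). Its reads covered only 29.7% of the gene's length in fibroblasts and 28.1% in SKPs, for a reason that was not tested. Lrp8 and Itga3 were each 2.01-fold higher in fibroblasts, and both fell short of 2-fold under median-of-ratios scaling or with reads mapped to genes as totals, which left 2 lower members. Anxa2, which with S100a10 forms a cell-surface docking site for plasminogen and tissue plasminogen activator, was abundant in both libraries at 488 RPKM in SKPs against 559, and Itgb1 stood at 200 against 306.

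Proteins that plasmin cuts or activates had 11 of 27 expressed members higher in SKPs, 6 lower and 10 neither, with a median of 0.41. The metalloproteinase genes Mmp9 and Mmp3 had large ratios at high levels: Mmp9 stood at 261 RPKM against 1.96, and Mmp3 at 1860 against 27.1. Mmp2, abundant in both libraries, stood at 1215 against 283. Mmp1a, an interstitial collagenase, had 202 reads against 1 (196-fold, 34.8 to 7788), and it may share reads with its close relative Mmp1b. The macrophage elastase gene Mmp12 had 545 against 17. Its 545 SKP reads covered only 47.5% of the gene's length, for a reason that was not tested. Mmp1a and Mmp12 passed the filter in SKPs alone and the laminin gene Lama5, 1 of the 6 lower, in fibroblasts alone, so that of 24 genes that passed in both 9 were higher and 5 lower. Thbs1, a matrix protein cut by plasmin, was 27.7-fold higher in fibroblasts (26.9 to 28.4).

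Transcription factors of the AP-1 and ETS families, which bind control regions of the activator genes, had 5 of 13 expressed members higher in SKPs, 1 lower and 7 neither, with a median of 0.33. The 5 were Etv1 (38.0 RPKM against 3.00, 12.7-fold), Etv5 (4.52-fold), Jun (67.9 against 16.9, 4.03-fold), Fosl1 (7.27 against 2.26, 3.22-fold) and Etv4 (21.9 against 7.14). Reads of Fosl1 covered only 35.19% of the gene's length in fibroblasts and 39.65% in SKPs, for a reason that was not tested. Fosl2 was 2.40-fold higher in fibroblasts, and Jund (49.0 RPKM against 79.1) and Elk3 (52.5 against 30.9) were under 2-fold apart.

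**Figure D4:**
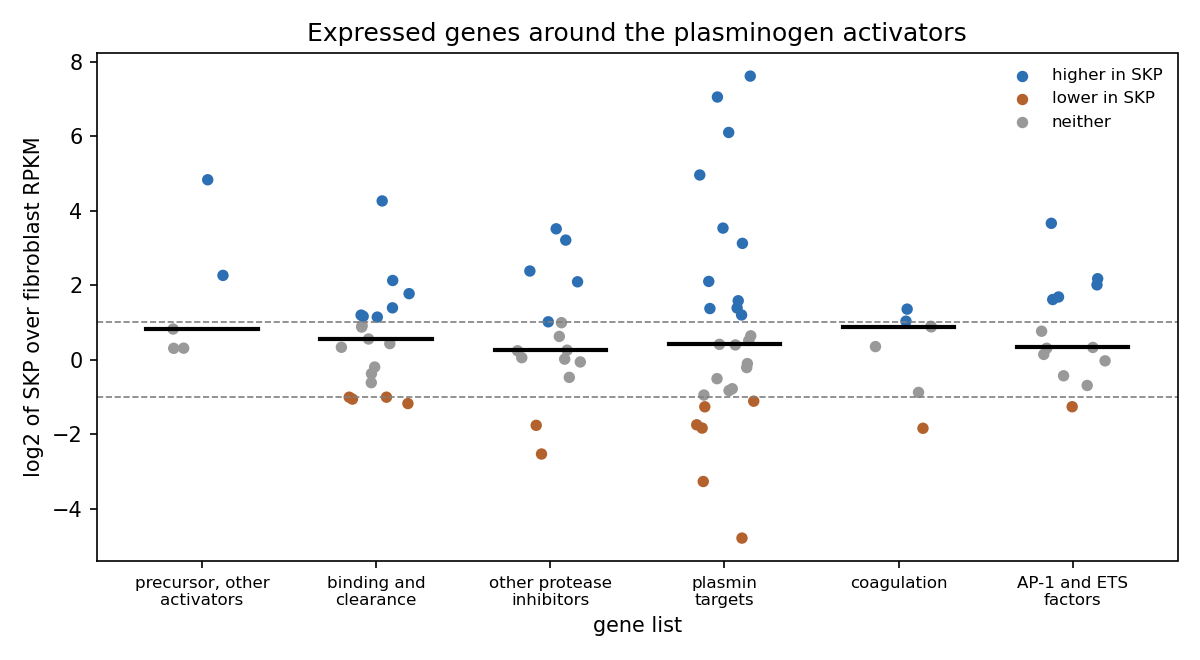
Log2 of SKP over fibroblast RPKM for the expressed genes of 6 lists around the plasminogen activators. Each point is a gene, the black bar is the list median, the dashed lines mark 2-fold, and colour gives the call. Klk6, with 0 fibroblast reads, is drawn at its bound. List medians lay between 0.26 and 0.88, with genes past 2-fold in both directions in 5 of the 6 lists.

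Among expressed genes, the pair of log2 RPKM values nearest to that of Plau over the 2 libraries belonged to the growth factor gene Igf2 (17.2 RPKM in fibroblasts and 401 in SKPs) and the midkine gene Mdk (10.6 and 303). For Serpine2 the nearest were the connexin 43 gene Gja1 (39.8 and 168) and the G protein subunit gene Gng11 (41.9 and 155). Ctsh and BC005537 were nearest to Plat, and Tm7sf3 and Ubap1 to Plaur. Nearest to Serpinb2 were Mmp1b, with the same 2 and 55 reads, and the purinergic receptor gene P2ry1, with 4 and 106 reads. The fibroblast level of Serpinb2 rested on 2 reads, so which genes lie nearest to it is uncertain. With 2 points per gene, likeness of this kind is a description of level and ratio only.

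The adjacent protein-coding genes on the chromosome did not share the ratio of Plau. Camk2g stood at 22.4 RPKM in fibroblasts and 15.3 in SKPs, and Vcl, which encodes the focal adhesion protein vinculin, at 148 and 50.0. Beside Serpine2, Mrpl44 was at 10.3 and 7.52 RPKM and Fam124b had 0 reads. The neighbours of Serpinb2 in its cluster of serpins on chromosome 1 were silent or nearly so, with 0 reads for Serpinb7 in both libraries and 0 and 2 reads for Serpinb10. None of the 5 expressed members overlapped another gene in the RefSeq table.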

How the data were processed

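Poly(A) RNA of 1 fibroblast and 1 SKP culture was sequenced on Illumina instruments per the labels' protocols, with reads of 49 bases. The deposited counts are whole reads per gene, and the file headers label them as unique reads. Their totals were 18406244 in fibroblasts and 18949264 in SKPs. The deposited mapping summary lists fewer unique matches, 14481657 and 14578907. The authors' RPKM divides them by gene length and by the counted total, per the file headers. The deposited coverage and mapping shares are in percent, and 81.65% of fibroblast and 85.13% of SKP reads mapped to genes. The authors' deposited table adds a log2 ratio, a p-value and an FDR from an unnamed test. Per the submitters' processing notes, the genome build was mm9. Aligner, annotation, strandedness and the handling of reads at several positions: not given in the sources used here.

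Ratios of SKP over fibroblast RPKM had 95% Clopper-Pearson intervals from the read counts, and ratios of 2 genes between libraries had conditional exact intervals. Intervals and the floor of 3 reads cover counting error only, since each cell type had 1 library. They take reads as independent, which reads copied by PCR are not, so the intervals may be too narrow even for counting error. A call needed at least 2-fold and an interval excluding equality. For a 1 kb gene, 1 read equals 0.0543 RPKM in fibroblasts and 0.0528 in SKPs. The 6 lists held 136 symbols, 122 of them with a read, and up to 4 expressed genes by ratio and 3 by level were named from each, with the members of a count of 5 or fewer. A gene that this rule names is not reported here. Genes set beside a member as its chromosomal neighbour, S100a10, and the macrophage and keratinocyte markers beside Serpinb2 were picked with their values in view. The members and lists were chosen with earlier results of these data known. Genes of the plasminogen system outside the members and lists are not analysed here. The code was tested on simulated data. Python 3.11.15, pandas 2.3.3, numpy 2.4.6, scipy 1.17.1 and matplotlib 3.10.9 were used.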

Additional observations from a re-analysis of the deposited data

How the results depend on the processing

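Alternatives were 3 other scalings of the libraries, log2(RPKM + 1), a filter at RPKM 5, no filter, the authors' deposited table, calls at 1.5-fold and 4-fold, and levels as TPM or as shares of reads. The count of 3 members higher and 0 lower in SKPs was 2 and 0 at RPKM 5, where Serpinb2 drops out, and 3 and 0 under every other alternative that bears on it, and no member with a call reversed. The Serpinb2 log2 ratio moved from 4.74 to 1.21 on the log2(RPKM + 1) scale, and at RPKM 5 it had no value. As a share of counted reads, not per length, Plau over Plat in SKPs was 2.38 on the log2 scale in place of 2.50. Over all 6 lists together, which held 5, 19, 15, 27, 7 and 13 expressed genes, 32 were higher and 14 lower in SKPs. At 4-fold 18 and 3 were so. Of all 12053 expressed genes 1455 were higher and 772 lower, and 705 and 241 were so at 4-fold. The counts of single lists moved by over 1.5 times in 25 cases and by 1.5 times or less, or not at all, in 83. The scalings put the median log2 ratio of expressed genes between -0.04 and 0.00. No paired analysis was possible because each cell type had 1 library, and leaving out a library was not possible for the same reason. Depth limits Serpinb2 and Serpinf2, with 2 and 6 fibroblast reads.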

Other observations

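Other serine protease inhibitors divided between the libraries, with 5 of 15 expressed genes higher in SKPs, 2 lower and 8 neither, and a median log2 ratio of 0.26. Tfpi2, an inhibitor of plasmin and tissue factor complexes that is laid down in the matrix, stood at 107 RPKM in SKPs against 11.5 (9.27-fold, 8.26 to 10.4). Serpini1, neuroserpin, an inhibitor of tissue plasminogen activator, stood at 2.71 RPKM against 0.520 (5.21-fold, 3.51 to 7.98), and it passed the expression filter in SKPs alone. Serpina3n (11.4-fold), Serpina3g (4.26-fold) and Serpinb1a (2.03-fold) were the other higher members, of which the Serpina3 genes are close copies whose split of reads is uncertain. With totals that leave out the 10 genes with the most reads, Serpinb1a fell short of 2-fold and 4 members were higher. Under median-of-ratios scaling or with reads mapped to genes as totals, Serping1 (1.99-fold before) passed 2-fold and 6 were higher. Serpinb9b was 5.78-fold and Spint2 3.39-fold higher in fibroblasts. The collagen chaperone gene Serpinh1 (806 RPKM against 840) and Serpinb6a (91.5 against 127) were under 2-fold apart.

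Coagulation genes had 2 of 7 expressed members higher in SKPs, 1 lower and 4 neither, with a median of 0.88. Pros1, the anticoagulant protein S, stood at 91.2 RPKM against 35.5 (2.57-fold, 2.44 to 2.70), and Tgm1, a transglutaminase of the epidermis, at 2.50 against 1.22. With totals that leave out the 10 genes with the most reads, Tgm1 fell short of 2-fold and 1 member was higher. F3, tissue factor, which starts coagulation, was 3.58-fold higher in fibroblasts at 125 RPKM against 34.8 (3.36 to 3.82). Gas6 (168 against 131) and Procr (8.21 against 4.41) were under 2-fold apart.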
